A study of Mus musculus with 8 samples.

Results

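The Fanconi anemia and homologous recombination genes were followed across 3 sorted populations of mouse blood stem and progenitor cells. The set comprised 38 listed genes, chosen by name and represented each by the probe set annotated with that single symbol. Of the 38, 34 matched such a probe set, 1 each, and 33 were tested among 17576 genes. Fanca and Rad54b were measured only by probe sets that carry a further gene's symbol, and Rbbp8 and Xrcc2 were not matched here. Rmi1 matched but lay below the signal minimum of 3.88 on the log2 scale, with values of 3.13 to 3.71. The tested members were not carried over the minimum by their high population alone, since the lowest population mean among them was 4.81, that of Bard1 in long-term stem cells.

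Total RNA of bone marrow cells of the C57/Bl6 strain, with a labelled age of 8 weeks, was hybridised to 8 microarrays. The long-term stem cells (LT-HSC, numbered 1 and 3, on 2 arrays) were sorted as CD48-, CD150+ and CD34-, the short-term stem cells (ST-HSC, on 3) as CD48-, CD150+ and CD34+, and the multipotent progenitors (MPP, on 3) as CD48+, CD150- and CD34+, all from the Lin-, Sca1+ and Kit+ fraction. The descriptions state no treatment, whereas the protocol attached to every sample describes 2 hours in DMSO, 1 year in primary recipients and 3 months in secondary recipients, and the labels do not settle which applies. Values are log2 RMA signals, a difference is that of 2 population means on this scale, with its standard error (SE) from limma, and a gene was called at a Benjamini-Hochberg adjusted p under 0.05 over all 17576 genes. The labels name no animals or sorts, and the p-values therefore reflect only the spread between these arrays, which may be technical.

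In the Fanconi anemia pathway, a core complex recognises a DNA interstrand crosslink and attaches ubiquitin to the FANCD2-FANCI clamp, which recruits nucleases that cut the crosslink out. The break this leaves is mended by homologous recombination: the ends are resected, BRCA1, PALB2 and BRCA2 prepare the exposed strand for pairing with an intact copy, and the joined molecules are then dissolved or cut apart. Recombination uses the sister chromatid and is active in S and G2 phase, and inherited loss of the pathway causes bone marrow failure with early loss of stem cells.

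Slamf1, the gene of the CD150 used for sorting, read 7.77 and 7.78 in LT-HSC, 7.25 to 7.46 in ST-HSC and 4.77 to 5.46 in MPP. The lowest values were those of the population gated as CD150-, while both stem cell populations were gated as CD150+. Cd34 was 8.50 and 10.20 in LT-HSC, so LT-HSC replicate 3 lay above all 3 ST-HSC arrays (9.55 to 10.15), against its gate. Ly6a, which encodes Sca1, was not analysed here, and values of Cd48 and Kit are not given. The replicate 1 arrays of both stem cell populations were set off from the rest in median correlation (0.956 for LT-HSC and 0.968 for ST-HSC, against 0.976 to 0.985) and in interquartile range (2.49 and 2.73, against 2.82 to 3.06). Calls, medians and the main counts are also given without them.

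In ST-HSC against LT-HSC, 6 of 33 tested members rose and 0 fell, which is 18.2% of the members against 0.848% of all genes called higher and 0.0853% called lower. The 6 were Brca1, Rad51ap1, Brip1, Blm, Bard1 and Fancd2. A further group of members, Brca2, Rad54l, Gen1 and Exo1, had log2 differences of 1.02 to 1.25 without passing the test. These 4 were called with the replicate number as a block (limma adjusted p = 0.0139, 0.00378, 0.0038 and 0.00974), where 2.26% of all genes were called higher. Over the 19 alternative settings they were called in only 3, 4, 3 and 4. In all, 8 of 33 members reached a log2 difference of at least 1, against 1.31% of all genes. At an unadjusted p under 0.05, 17 were higher (7.81% of all genes) and 0 lower (3.25%). Without LT-HSC replicate 1, 5 members reached a log2 difference of 1 (1.11% of all genes) and 13 an unadjusted p under 0.05 (3.37%), and without ST-HSC replicate 1 as well these were 4 (0.899%) and 13 (3.78%). The median over the tested members was 0.50, beside 0.02 over all genes. The direction was positive for 32 of 33 members (52% of all genes) in the deposited values, also for 32 with quantile normalization, and for 33 with median centring, which raised the median of all genes by 0.11.

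Brca1 encodes an E3 ubiquitin ligase that acts in recombination at broken ends. Its signal was 5.68 and 5.77 in LT-HSC, 7.11, 6.96 and 7.12 in ST-HSC, and 6.44, 5.82 and 5.97 in MPP. The ST-HSC arrays lay above every other array, and MPP overlapped neither population. The ST-HSC mean was 2.53-fold that of LT-HSC (log2 difference 1.34, SE 0.20, limma adjusted p = 0.0117). Brca1 and Rad51ap1 were also the members called by the F test over the 3 populations (limma adjusted p = 0.0175 and 0.044), 2 of 33 members against 0.905% of all genes.

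Bard1, the obligate partner of Brca1 in the ligase, read 4.58 and 5.04 in LT-HSC, 6.19, 5.72 and 6.06 in ST-HSC, and 5.77, 5.35 and 5.90 in MPP. Its ST-HSC arrays lay above both LT-HSC arrays but within reach of MPP, whose replicates 1 and 3 exceeded ST-HSC replicate 2 (difference from LT-HSC 1.18, SE 0.23, limma adjusted p = 0.0426). Brip1 encodes the helicase that binds the BRCA1 C-terminal repeats and is mutated in a form of Fanconi anemia. It was 5.30 and 5.84 in LT-HSC, 7.06, 7.10 and 6.89 in ST-HSC, and 6.89, 5.92 and 6.41 in MPP. Brip1 had the largest ST-HSC minus LT-HSC difference among the tested members, 1.45 (SE 0.27, limma adjusted p = 0.0334), and ST-HSC did not overlap LT-HSC.

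The other mediators were higher in ST-HSC without passing. Brca2, a mediator that acts on single-stranded DNA, was 6.84 and 7.08 in LT-HSC, 8.23, 7.77 and 7.93 in ST-HSC and 7.83, 7.43 and 7.26 in MPP. Its ST-HSC and LT-HSC arrays did not overlap, at a difference of 1.02 (SE 0.22, limma adjusted p = 0.0616, or 0.0139 with the block). For Palb2, the bridge between BRCA1 and BRCA2, the difference was 0.67 (SE 0.20, limma adjusted p = 0.205). All 5 mediators separated ST-HSC from LT-HSC with no overlap, as 13.8% of all genes did in this direction, and 3 of the 5 rose.

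**Figure D1:**
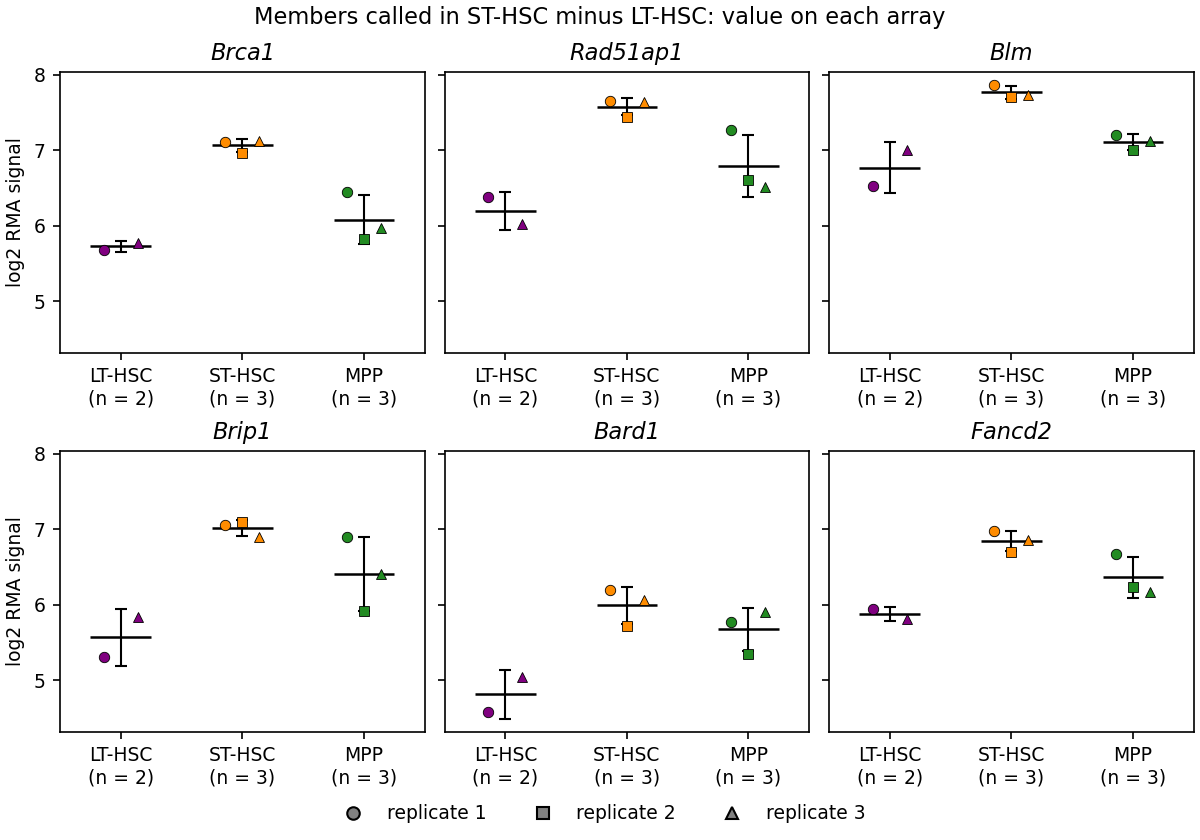
Log2 RMA signal (y axis) of the 6 members called in ST-HSC minus LT-HSC, by population (x axis). Each point is 1 array, its shape gives the replicate number, lines are population means and bars are SD. For Brca1 the ST-HSC arrays sit between 6.96 and 7.12, above both LT-HSC arrays (5.68 and 5.77) and all MPP arrays, whose replicate 1 (6.44) is the highest.

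Rad51ap1 encodes a DNA-binding protein that stimulates strand pairing. It was 6.38 and 6.02 in LT-HSC, 7.65, 7.44 and 7.63 in ST-HSC, and 7.26, 6.60 and 6.51 in MPP. No population overlapped another, with ST-HSC highest and LT-HSC lowest (ST-HSC over LT-HSC 1.38, SE 0.24, limma adjusted p = 0.0219). Rad54l, a DNA translocase that promotes strand exchange, was 5.29 and 6.15 in LT-HSC and 7.03, 6.72 and 7.16 in ST-HSC. For Rad54l the LT-HSC arrays were further apart than the ST-HSC arrays, though all lay below them, and the difference of 1.25 did not pass (SE 0.27, limma adjusted p = 0.0624, or 0.00378 with the replicate block).

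Blm encodes the helicase of the dissolvasome, the complex that separates joined molecules without crossing over. It was 6.53 and 7.01 in LT-HSC, 7.86, 7.70 and 7.73 in ST-HSC, and 7.21, 7.00 and 7.12 in MPP. ST-HSC lay above both other populations, while MPP and LT-HSC overlapped (ST-HSC over LT-HSC 1.00, SE 0.19, limma adjusted p = 0.0352). Top3a, the topoisomerase of the complex, was 6.00 and 6.19 in LT-HSC, 6.13, 6.62 and 6.65 in ST-HSC, and 6.65, 6.39 and 6.55 in MPP. For Top3a, LT-HSC and ST-HSC overlapped (difference 0.37, SE 0.20, limma adjusted p = 0.53), while every MPP array lay above LT-HSC. Rmi2, an OB-fold subunit that stabilises the complex, differed by 0.15 (SE 0.18, limma adjusted p = 0.803).

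Fancd2, which forms the clamp with Fanci, was 5.94 and 5.81 in LT-HSC, 6.97, 6.70 and 6.85 in ST-HSC, and 6.67, 6.23 and 6.17 in MPP. No population overlapped another, and the ST-HSC minus LT-HSC difference of 0.97 passed narrowly (SE 0.20, limma adjusted p = 0.0496). Fanci was 5.24 and 5.47 in LT-HSC and 6.05, 6.17 and 6.32 in ST-HSC. These arrays did not overlap, but the difference of 0.82 did not pass (SE 0.25, limma adjusted p = 0.229, or 0.0365 with the replicate block), beside MPP values that ran from 5.32 in replicate 2 to 6.18 in replicate 1.

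Upstream of the clamp acts the ligase complex. Of the 7 members tested from this complex and its ubiquitin-conjugating enzyme Ube2t, 0 were called. Fancb, a subunit outside the member list, was called at 1.00 (limma adjusted p = 0.0426). The ST-HSC minus LT-HSC differences of the 7 members ran from 0.12 for Fancg, a scaffold subunit, to 0.69 for Ube2t. Ube2t, the ubiquitin-conjugating enzyme that works with the ligase subunit FANCL, was 6.33 and 6.32 in LT-HSC, 7.00, 6.72 and 7.34 in ST-HSC, and 6.69, 6.22 and 6.54 in MPP. Its ST-HSC arrays lay above all others, at a limma adjusted p of 0.247, or 0.0418 with the replicate block. Fancl itself differed by 0.36 (limma adjusted p = 0.586) and Fancm, the translocase that anchors the complex on DNA, by 0.28 (0.644). Among the scaffold subunits, Fancf was 7.06 and 7.48 in LT-HSC, 7.51, 7.27 and 7.68 in ST-HSC and 7.37, 6.97 and 7.13 in MPP, so all 3 populations overlapped. Fance and Fancc differed by 0.23 and 0.21.

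Among the end resection genes 0 of 4 were called, although all 4 separated ST-HSC from LT-HSC without overlap, as 13.8% of all genes did in this direction. Exo1, the exonuclease of long-range resection, was 6.68 and 6.44 in LT-HSC, 7.62, 7.64 and 7.87 in ST-HSC, and 7.71, 6.44 and 7.08 in MPP. Its difference was 1.16 (SE 0.30, limma adjusted p = 0.143, or 0.00974 with the replicate block), and MPP alone spanned the range from the LT-HSC to the ST-HSC level. The subunits of the complex that senses and trims broken ends differed by 0.70 for the nuclease Mre11a, 0.62 for Nbn and 0.50 for the ATPase Rad50 (limma adjusted p = 0.219, 0.405 and 0.357). Rad50 was 7.91 and 8.34 in LT-HSC, 8.66, 8.63 and 8.60 in ST-HSC, and 8.63, 8.28 and 8.41 in MPP. For Nbn the LT-HSC arrays were 7.15 and 8.06, and the second value lay close to the ST-HSC values of 8.20 to 8.25.

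Of the recombination paralogs, a family that acts in the early steps of strand exchange, 0 of 4 tested were called. Rad51b, Rad51c and Xrcc3 had ST-HSC minus LT-HSC differences of 0.54, 0.42 and 0.37 (limma adjusted p = 0.348, 0.514 and 0.552), each without overlap. Xrcc3 was 6.63 and 7.26 in LT-HSC, 7.33, 7.30 and 7.31 in ST-HSC, and 7.20, 6.84 and 7.17 in MPP. Rad51d, of the same family, ran otherwise: 6.07 and 6.45 in LT-HSC, 5.71, 6.53 and 6.26 in ST-HSC, and 6.74, 6.51 and 6.82 in MPP. It was the tested member with a negative ST-HSC minus LT-HSC difference, -0.09 (SE 0.24, limma adjusted p = 0.922), and the sign changed in 4 of 19 alternative settings. Its MPP arrays lay above both LT-HSC arrays (difference 0.43, limma adjusted p = 0.538).

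The structure-selective nucleases held the widest span of differences, with 0 of 6 called. Gen1, which cuts Holliday junctions symmetrically, was 5.23 and 5.81 in LT-HSC, 6.88, 6.37 and 6.88 in ST-HSC, and 6.50, 5.77 and 6.12 in MPP. The difference was 1.19 without overlap (SE 0.27, limma adjusted p = 0.0766, or 0.0038 with the replicate block). Mus81, the catalytic subunit of the other resolving nuclease, was 5.42 and 5.53 in LT-HSC, 5.50, 5.42 and 5.50 in ST-HSC, and 5.62, 5.37 and 5.56 in MPP, a difference of 0.003 (SE 0.16, limma adjusted p = 0.996). Its partner Eme1 differed by 0.27, Slx4, the scaffold that holds several nucleases, by 0.19, and Fan1 by 0.15. Ercc4, the XPF nuclease shared with excision repair, was 6.40 and 7.10 in LT-HSC, 6.90, 7.13 and 7.09 in ST-HSC and 7.07, 7.12 and 7.23 in MPP, with overlap and a difference of 0.29 (limma adjusted p = 0.653).

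**Figure D2:**
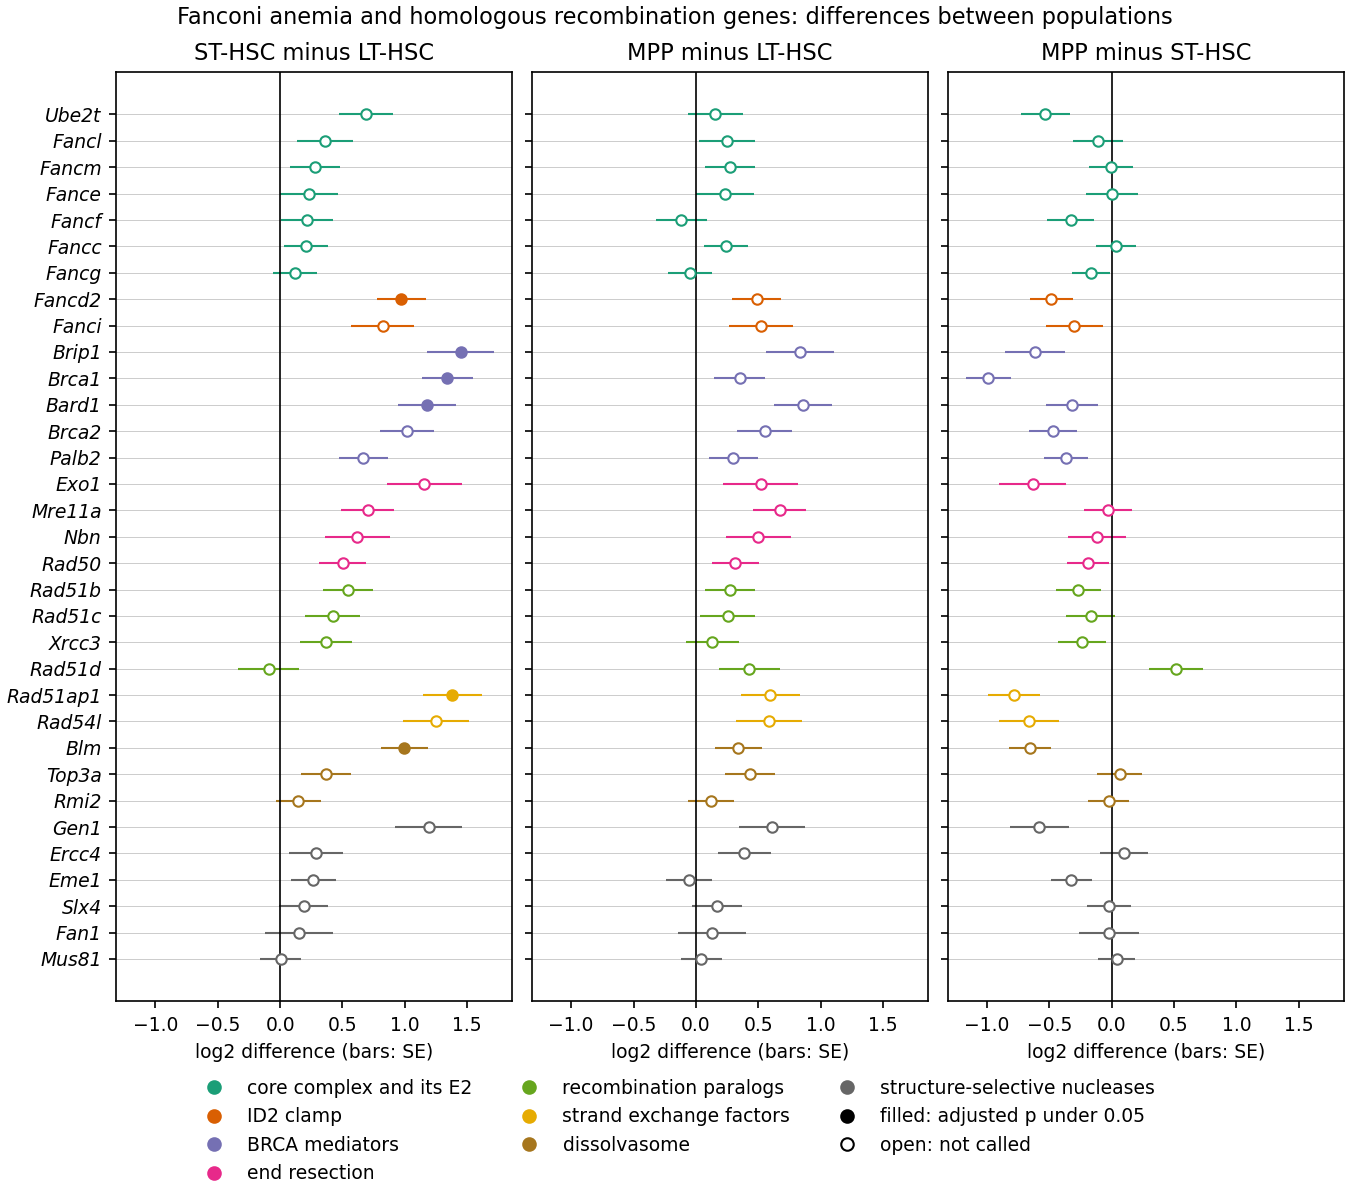
Log2 differences (x axes) of the 33 tested members (y axis, grouped by role through colour) in the 3 comparisons, with bars of 1 SE and filled points for an adjusted p under 0.05. The filled points are the 6 called in ST-HSC minus LT-HSC, where Brip1 lies highest at 1.45 and Rad51d lowest at -0.09.

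The calls depended on single arrays, and so did those over all genes. All genes called higher were 0.848% in the main fit, and 0.546%, 0.484% and 0.273% without ST-HSC replicate 1, 2 and 3. They were 0.853%, 0.882% and 0.449% without MPP replicate 1, 2 and 3. Without LT-HSC replicate 1 or without ST-HSC replicate 3, 0 members were called, and without ST-HSC replicate 1 or 2 Brca1 alone was. Without MPP replicate 3, Brca1 and Rad51ap1 were called, and Fancd2 also lost its call without MPP replicate 2 (limma adjusted p = 0.0672), where Exo1 was called. Without MPP replicate 1, Blm and Bard1 lost their calls (0.0548 and 0.0656) and Exo1 gained one. Without LT-HSC replicate 3, 10 members were called, Brca2, Gen1, Mre11a, Nbn and Rad54l added and Fancd2 lost (0.0614), while 3.92% of all genes were called higher. LT-HSC is then replicate 1 alone, one of the arrays set off from the rest. Without the replicate 1 arrays of both stem cell populations, 0 of 33 members and 0 of 17576 genes were called by limma (the lone LT-HSC array being assumed to vary like the rest). LT-HSC is then replicate 3 alone, as it is without LT-HSC replicate 1, and that array's Cd34 signal lay against its gate. In that setting 30 of 33 differences were positive with a median of 0.40, and Brca1 kept a difference of 1.27 and Rad51ap1 of 1.52. With the replicate number as a block 12 members rose, the 6 named first and Brca2, Exo1, Fanci, Gen1, Rad54l and Ube2t, beside 2.26% of all genes. With array weights 0 members were called, beside 0.319% of all genes called higher.

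The separation was wider than the calls. ST-HSC lay above LT-HSC without overlap for 22 of 33 members (66.7%), against 13.8% of all genes, and below it for 0, against 9.5%. In lists described below, it lay above for 33 of 33 S phase genes and 32 of 32 G2 and M phase genes. The counts were 21 of 36 further Fanconi and recombination genes and 11 of 19 checkpoint signalling genes. For non-homologous end joining, mismatch, nucleotide excision and base excision repair they were 5 of 12, 2 of 6, 4 of 16 and 5 of 15. The population mean was highest in ST-HSC for 27 of 33 members (30% of all genes) and lowest in LT-HSC for 29 (44.1%). It was highest in MPP for 6 (35.2%), Fancc, Fance, Rad51d, Top3a, Ercc4 and Mus81, highest in LT-HSC for 0 (34.8%) and lowest in ST-HSC for Rad51d alone (29.6%). The order from LT-HSC through MPP to ST-HSC held for 24 members, against 22% of all genes. Without the replicate 1 arrays of LT-HSC and ST-HSC, 26 members lay above LT-HSC in ST-HSC without overlap (34.5% of all genes) and Mus81 below it (37%). The mean was then highest in ST-HSC for 27 (32.3%) and lowest in LT-HSC for 24 (36.3%), and the order held for 21 (20.2%).

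**Figure D3:**
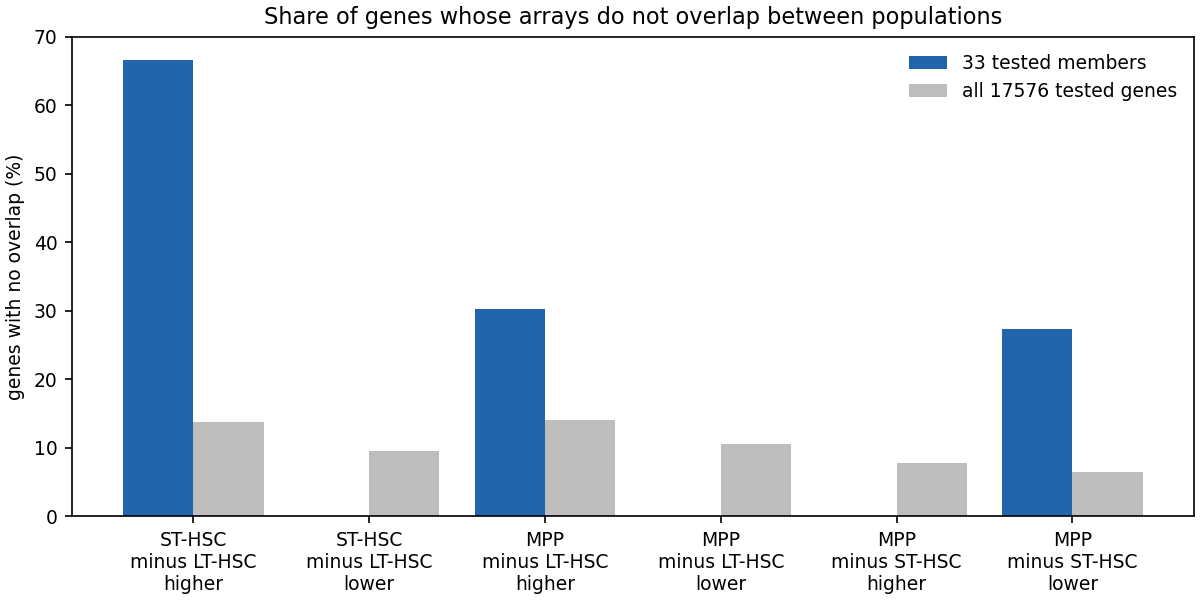
Share of genes (y axis, percent) whose arrays do not overlap between 2 populations, for each comparison and direction (x axis), in the 33 tested members and in all 17576 tested genes. Members reach 66.7% for higher in ST-HSC than in LT-HSC, where all genes reach 13.8%, and 27.3% for lower in MPP than in ST-HSC, where all genes reach 6.43%.

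The promoters of the called members are shown because these genes rose in the same comparison, beside that of Mus81, the member whose difference was nearest 0. Each line gives the 250 bases before the transcription start from RefSeq on GRCm38.p6, 5′ to 3′ on the gene's strand, with matches to the motifs below in capitals. Fancd2 is named only, since it has no entry in the table.
Brca1, chr11:101551956-101552205, minus strand: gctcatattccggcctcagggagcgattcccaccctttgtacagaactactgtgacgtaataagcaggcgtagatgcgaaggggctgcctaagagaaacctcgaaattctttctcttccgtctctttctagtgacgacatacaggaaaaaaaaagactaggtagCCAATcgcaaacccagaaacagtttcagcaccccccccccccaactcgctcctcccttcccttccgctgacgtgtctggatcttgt
Bard1, chr1:71102973-71103222, minus strand: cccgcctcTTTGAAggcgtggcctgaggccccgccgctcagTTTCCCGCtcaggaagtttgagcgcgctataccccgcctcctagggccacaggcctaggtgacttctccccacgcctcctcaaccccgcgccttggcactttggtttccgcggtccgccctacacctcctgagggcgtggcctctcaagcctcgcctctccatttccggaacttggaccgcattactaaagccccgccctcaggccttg
Brip1, chr11:86201194-86201443, minus strand: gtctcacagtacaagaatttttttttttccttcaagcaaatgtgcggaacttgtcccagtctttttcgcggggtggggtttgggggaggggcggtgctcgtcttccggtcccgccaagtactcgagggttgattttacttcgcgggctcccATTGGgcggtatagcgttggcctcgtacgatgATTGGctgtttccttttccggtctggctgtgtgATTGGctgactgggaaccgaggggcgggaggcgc
Rad51ap1, chr6:126939588-126939837, minus strand: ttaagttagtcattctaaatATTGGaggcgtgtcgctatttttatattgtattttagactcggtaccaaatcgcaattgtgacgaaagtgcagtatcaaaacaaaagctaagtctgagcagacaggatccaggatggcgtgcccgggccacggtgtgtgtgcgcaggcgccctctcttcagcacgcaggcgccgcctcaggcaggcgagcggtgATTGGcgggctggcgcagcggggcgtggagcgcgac
Blm, chr7:80534999-80535248, minus strand: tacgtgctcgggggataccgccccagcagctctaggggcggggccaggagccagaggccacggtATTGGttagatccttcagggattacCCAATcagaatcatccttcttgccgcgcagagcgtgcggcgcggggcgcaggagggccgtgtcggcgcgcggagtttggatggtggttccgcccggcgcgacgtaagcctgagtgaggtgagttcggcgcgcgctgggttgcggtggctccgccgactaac
Mus81, chr19:5488380-5488629, minus strand: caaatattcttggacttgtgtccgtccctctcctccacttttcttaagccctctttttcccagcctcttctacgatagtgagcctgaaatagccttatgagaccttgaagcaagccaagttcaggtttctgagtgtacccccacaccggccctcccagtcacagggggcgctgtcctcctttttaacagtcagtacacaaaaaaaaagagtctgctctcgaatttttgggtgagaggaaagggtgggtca

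The motifs were searched on both strands from 250 bases before to 50 after the start, in 26 of the 33 tested members with a promoter. The NF-Y core, CCAAT, stood in 16 of the 26 (61.5%), against 37.9% of all 27025 promoters and 37.9% of those of tested genes. Its share was 57.1% in the S phase list, 66.7% in the G2 and M phase list and 60.6% in the further Fanconi and recombination genes. Brip1 held 3 matches, all on the reverse strand, with first bases at positions -99, -67 and -34 from the start. Blm held 2 at -186 and -161, Rad51ap1 2 at -230 and -36, and Brca1 1 at -86. The E2F core was searched as TTTGGCGC, TTTCGCGC, TTTCCCGC and TTTGCCGC. It stood in 4 of 26 (15.4%), those of Fancg, Bard1, Brca2 and Rad51c. This compares with 2.32% of all promoters, 3.49% of those of tested genes and 42.9% of 28 S phase gene promoters. The CHR element, TTTGAA, stood in 2 of 26 (7.69%), those of Bard1 and Eme1. Its share was 18.1% of all promoters, 13.3% of those of tested genes and 74.1% of 27 promoters of G2 and M phase genes. Matches of different motifs did not overlap in these promoters. They describe letters in this window, and neither a match nor its absence shows whether a factor binds.

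Of 36 further Fanconi and recombination genes that were tested, 4 rose in ST-HSC against LT-HSC and 0 fell, with a median difference of 0.45 and 33 of 36 positive. Parpbp, a PARP1-binding inhibitor of recombination, differed by 1.74 (SE 0.27, limma adjusted p = 0.0118). Rfwd3, an E3 ligase that acts on RPA, rose by 1.11, the core complex subunit Fancb by 1.00 and the recombination mediator Swi5 by 0.93 (limma adjusted p = 0.0434, 0.0426 and 0.041). Sfr1, the partner of Swi5, differed by 0.01 (limma adjusted p = 0.995), and Rpa3, a subunit of the single-strand binding protein, by 0.97 (0.0846).

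Smaller medians were seen in most other repair lists. Between ST-HSC and LT-HSC the median difference was 0.10 for 12 non-homologous end joining genes, 0.31 for 6 mismatch repair genes, 0.19 for 16 nucleotide excision repair genes and 0.21 for 15 base excision repair genes. In the first 3 of these lists 0 genes were called by limma, and in the last Neil3, a glycosylase, rose by 1.57 (limma adjusted p = 0.00617). Checkpoint signalling genes, which report broken or stalled DNA to the cell cycle, had a median of 0.57 with 0 of 19 called, Topbp1 at 0.57 and Rnf168 at 0.60 being examples (limma adjusted p = 0.314 and 0.293). Whether these lists differed from the members was not tested.

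Proliferation genes moved with the members. In ST-HSC against LT-HSC 10 of 33 S phase genes rose and 33 were positive, with a median of 0.98; the primase subunit Prim1 rose by 1.45 and the replication helicase subunit Gins1 by 1.29 (limma adjusted p = 0.0453 and 0.012). Of 32 G2 and M phase genes 31 rose, with a median of 1.67. Relative to each gene's mean over all arrays, the G2 and M phase genes averaged -1.14 and -0.73 in LT-HSC, 0.82, 0.68 and 0.84 in ST-HSC and 0.22, -0.49 and -0.20 in MPP. The tested members averaged -0.49 and -0.22, then 0.23, 0.19 and 0.33, then 0.20, -0.22 and -0.02 in the same arrays. The share of cells in cycle was not measured, and in bulk samples fewer cells of a type and less RNA per cell cannot be told apart. The part of cycling in the members' differences was not tested.

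**Figure D4:**
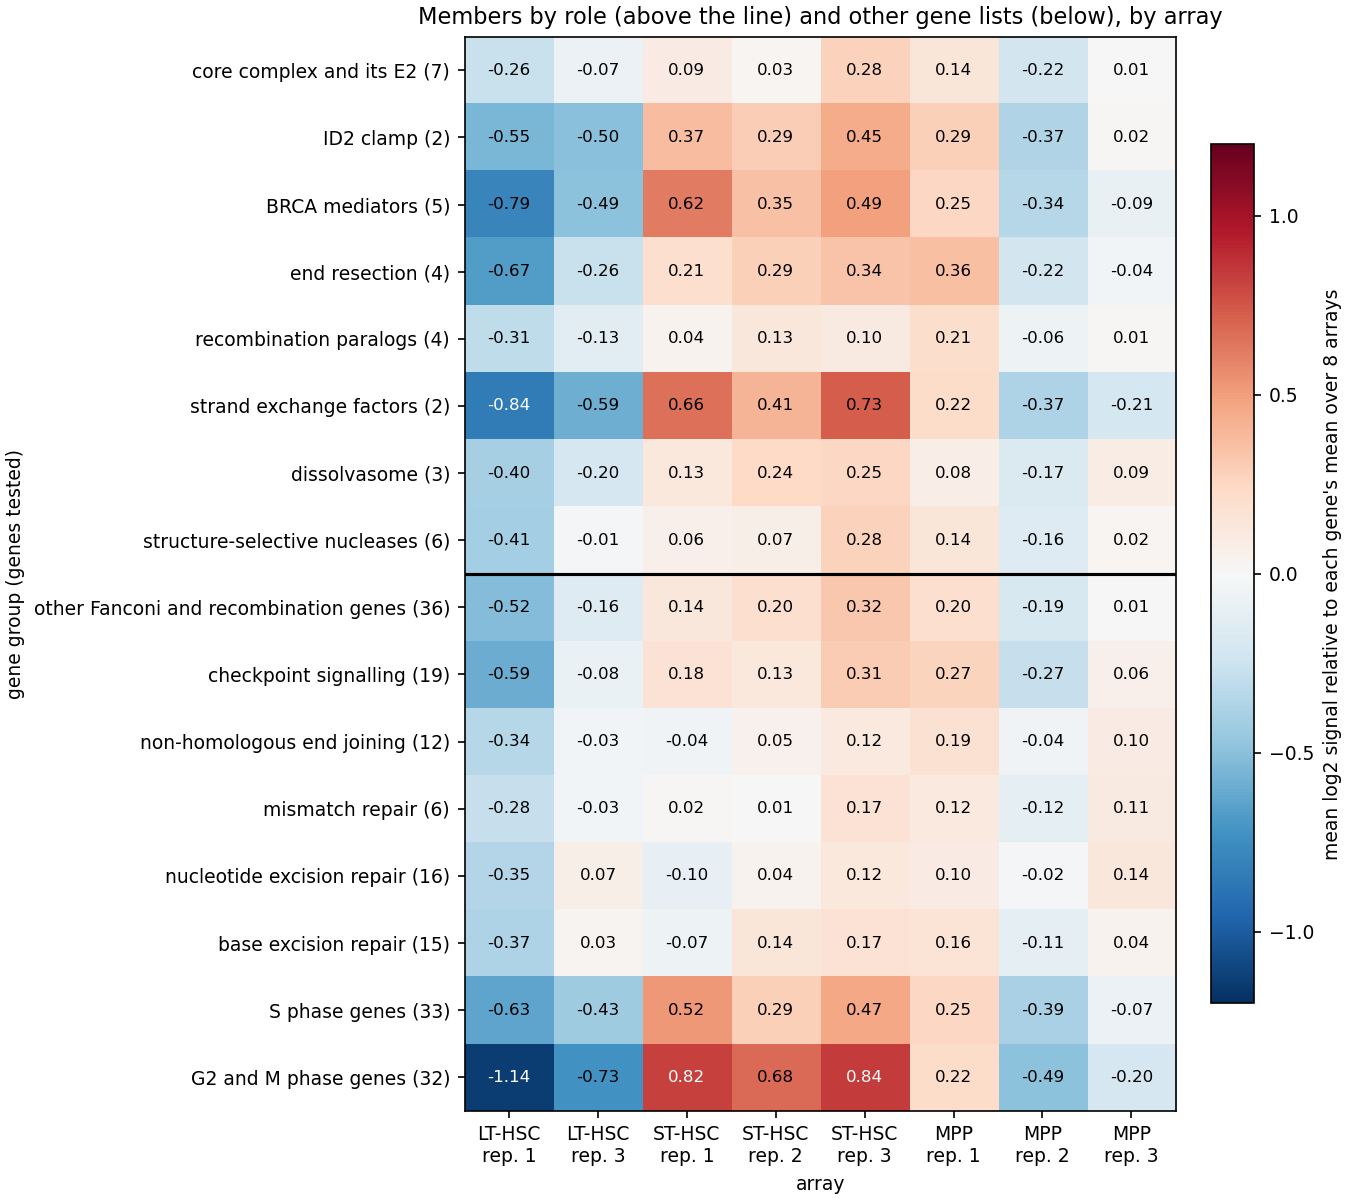
Mean log2 signal of each gene group relative to its genes' means over the 8 arrays (colour and printed value), with arrays as columns and groups as rows; the members' role groups stand above the line. The strand exchange factors Rad51ap1 and Rad54l run from -0.84 in LT-HSC replicate 1 to 0.73 in ST-HSC replicate 3, whereas the nucleotide excision repair genes stay between -0.35 and 0.14.

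Markers of other cells were set beside these values. Of 10 tested megakaryocyte markers 10 were positive and 2 rose in ST-HSC against LT-HSC, the integrin Itga2b by 1.18 and the platelet glycoprotein Gp5 by 1.44 (limma adjusted p = 0.00814 and 0.0194). Their mean relative level was -0.16 and -0.03 in LT-HSC, 0.20 to 1.17 in ST-HSC and -0.75 to -0.39 in MPP. Granulocyte and monocyte markers (0 of 21 called by limma in any comparison) stood at 0.60 in LT-HSC replicate 1, 0.88 in ST-HSC replicate 1 and 0.54 in MPP replicate 1, and at -0.76 to -0.18 in the others. Stroma and endothelium markers (0 of 15 called) reached 1.07 in ST-HSC replicate 1 and lay at -0.34 to 0.24 elsewhere, and erythroid markers (0 of 10) reached 0.94 there. Their part in the members' differences was not tested.

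Against LT-HSC, 0 of 33 members were called in MPP by limma, where 0.125% of all genes were (0.00569% higher and 0.119% lower). At an unadjusted p under 0.05, 7 members were higher (6.96% of all genes) and 0 lower (3.6%), and 0 reached a log2 difference of 1 (0.706%). The median difference was 0.31, beside 0.06 over all genes, with 30 of 33 positive (57.2% of all genes) in the deposited values, 31 with quantile normalization and 33 with median centring. Differences were largest for Bard1 (0.86), Brip1 (0.83) and Mre11a (0.67), at limma adjusted p of 0.232, 0.332 and 0.316. For Mre11a the MPP values of 7.88, 7.51 and 7.65 lay above both LT-HSC values (6.75 and 7.26), replicate 1 above and the others within the ST-HSC span of 7.48 to 7.84. MPP lay above LT-HSC without overlap for 10 members (30.3%), against 14.1% of all genes, and below it for 0 (10.5%). That count was 23 without LT-HSC replicate 3 (45.5% of all genes) and 24 without MPP replicate 2 (27%). The count at an unadjusted p was 3 without LT-HSC replicate 1 or MPP replicate 1 (2.11% and 3.98% of all genes) and 11 without MPP replicate 2 (7.94%). Without LT-HSC replicate 1 the median was 0.23 and 25 of 33 were positive. In that setting 13 members lay above the lone LT-HSC array without overlap (24.3% of all genes) and 4 below it (24.6%). The replicate block gave 1 call, Bard1 (limma adjusted p = 0.0364), beside 0.461% of all genes called higher. Both comparisons with LT-HSC share its 2 arrays.

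Between MPP and ST-HSC, 0 of 33 members were called by limma, where 0.193% of all genes were (0.0683% higher and 0.125% lower). At an unadjusted p under 0.05, 10 members were lower in MPP (3.26% of all genes) and 1 was higher (3.63%). The median difference was -0.24, beside 0.01 over all genes, and 6 of 33 were positive (51.7% of all genes) and 27 negative, also with quantile normalization, or 26 with median centring. Brca1 differed most, by -0.99 (SE 0.18, limma adjusted p = 0.0749), followed by Rad51ap1 at -0.78 (0.231), Rad54l at -0.66 (0.494) and Blm at -0.65 (0.207). Rad51d had the largest positive difference, 0.52 (SE 0.22, limma adjusted p = 0.662). MPP lay below ST-HSC without overlap for 9 members (27.3%), against 6.43% of all genes, and above it for 0 (7.75%). The count was 11 without ST-HSC replicate 1 (12.7% of all genes), 15 without ST-HSC replicate 2 (11.4%) and 19 without MPP replicate 1 (12.5%). Without ST-HSC replicate 1 the median was -0.23, with 28 of 33 negative. Members lower at an unadjusted p numbered 6 without ST-HSC replicate 1, 5 without ST-HSC replicate 3, 3 without MPP replicate 2 and 5 without MPP replicate 3 (3.04%, 2.51%, 2.15% and 2.35% of all genes). The 9 members with no overlap were Brca1, Brip1, Fancd2, Rad51ap1, Rad54l, Blm, Ube2t, Xrcc3 and Eme1. For Brip1 the margin was slight, with 6.889 in MPP replicate 1 and 6.893 in ST-HSC replicate 3. For Ube2t it was also small, with 6.694 in MPP replicate 1 and 6.716 in ST-HSC replicate 2. MPP lay below ST-HSC in this way for 19 of 33 S phase, 30 of 32 G2 and M phase and 6 of 36 further Fanconi and recombination genes.

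With the replicate number as a block, Brca1 and Rad51ap1 fell in MPP against ST-HSC (limma adjusted p = 0.0125 and 0.0459), 2 members among 267 called genes. Array weights called these 2 and Blm, among 525 called genes. Leaving out MPP replicate 1 called Brca1 (limma adjusted p = 0.0495), among 20 called genes. The MPP arrays were spread in a shared way: replicate 1 was the highest MPP array for 25 of 33 members (36.7% of all genes) and replicate 2 the lowest for 27 (46.5%). Exo1 showed this most plainly, at 7.71 in MPP replicate 1 and 6.44 in replicate 2. Without MPP replicate 2 the median difference from ST-HSC was -0.11 with 22 of 33 negative, and without MPP replicate 1 it was -0.30 with 30 of 33 negative. In LT-HSC, replicate 1 was the lower array for 23 of 33 members, against 59.7% of all genes.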

How the data were processed

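Gene expression was measured on single-colour microarrays after amplification with the Ovation Pico WTA V2 kit and biotin labelling with the Encore module, per the labels' protocols. The authors deposited 1 value per probe set and array, made with RMA per the submitters' processing notes. RMA is a method that corrects background, normalizes between arrays and summarises probes; its settings and version are not given in the sources used here. A log2 scale of the deposited values was inferred from their range, 2.05 to 12.9.

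Of 33649 probe sets, 23521 had 1 gene symbol in the platform annotation, 1814 several and 8314 none here. A gene was represented by its probe set of highest mean, and 17576 of 22180 genes had a mean of at least 3.88, the 25th percentile over probe sets. All 8 arrays entered 1 limma 3.58.1 fit (R 4.3.3) that estimated the mean of each population (5 residual and 5.93 prior degrees of freedom). The p-values of the 3 comparisons and the F test were adjusted by Benjamini-Hochberg over all tested genes. The fitting code was run on simulated independent arrays with changes larger than those of the members. That run does not bear on paired or outlying arrays or on smaller changes. Every listed member could be named. Array values were given for called members and for the uncalled member of highest signal in each role group, with others added after their values were seen. Members, lists and rules were chosen with earlier results of these data known. Several list entries are an old and a new symbol of 1 gene, so counts are of tested genes.

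ST-HSC and MPP arrays with the same replicate number deviated together from their population means. The correlations over all tested genes were 0.15, 0.23 and 0.21 for replicates 1, 2 and 3. Arrays with different numbers had correlations of -0.28 to 0.07. Deviations from the mean of 3 arrays cancel within a population, so positive correlations at equal numbers push the others down. The contrast between the 2 is therefore partly fixed in advance. The labels state no pairing, and the 2 LT-HSC arrays allow no such check. The reported fit did not use the replicate numbers, so its SEs and p-values are unpaired. Fits with the replicate number as a block are given as alternatives. Precision is limited by how few arrays there are. The 19 alternatives cover scaling, the filter, array omissions, the replicate block, 2-population fits, array weights, an intensity trend and averaged probe sets.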

Additional observations from a re-analysis of the deposited data

How the results depend on the processing

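No result of the members reversed its direction among those tracked here (the calls, the medians and the 6 called members). Of the 6 calls in ST-HSC minus LT-HSC, Brca1 kept its call in 15 of 19 alternatives, Rad51ap1 in 13, Brip1 in 11, Bard1 and Blm in 8 each and Fancd2 in 6. The number of members called was 12 with the replicate block, 13 with only the compared populations in that block, 3 with only those populations unblocked, 2 with median centring, and 0 with array weights or without LT-HSC replicate 1 and ST-HSC replicate 1. Omitting 1 array gave 0 to 10. For MPP minus LT-HSC it was 1 in both blocked fits and 0 to 0 over the omissions. For MPP minus ST-HSC it was 2 with the block, 1 in the blocked fit of those populations, 3 with array weights and 0 to 1 over the omissions. By the F test it was 10 with the block, 1 without the filter or with the intensity trend, 0 with median centring or without both arrays, and 0 to 4 over the omissions. The members' medians stayed within 0.29 to 0.68, 0.20 to 0.44 and -0.30 to -0.11 over the omissions in the 3 comparisons. Elsewhere among members the sign of small differences changed, as for Mus81 in 5 of 19 settings of ST-HSC minus LT-HSC. The causes were not tested.

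Over all genes, the calls in ST-HSC minus LT-HSC, 164 as reported, numbered 473 with the block, 1128 with only those populations in it, 100 with them unblocked, 104 with median centring, 61 with array weights, 0 without both arrays and 17 to 825 over the omissions. For MPP minus LT-HSC (22 as reported) these were 157, 266, 37 with quantile normalization, 5 with median centring, 9 with array weights and 6 to 615. For MPP minus ST-HSC (34) they were 267, 289, 71 with only those populations, 1 with median centring, 525 with array weights, 78 without both arrays and 1 to 71. The F test (159) gave 566 with the block, 65 with median centring, 386 with array weights, 88 without both arrays and 29 to 520. No raw signal over background was analysed here, so detection of dim members such as Rmi1 could not be judged.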
